A study of Mus musculus with 6 samples.

Results

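The genes described here encode the paracrine factors that the mouse oocyte secretes, together with the receptor kinase by which it receives a signal from the surrounding follicle. They are *Gdf9*, *Bmp15*, *Bmp6*, *Fgf8*, *Oosp1*, *Oosp2*, *Oosp3* and *Kit*. The 8 genes were chosen by symbol among the Ensembl genes, and all 8 were found among the 60193 genes listed and passed the filter of a mean of at least 1 FPKM (fragments scaled to transcript length and library size) that 18818 genes met. The samples were pools of metaphase II (MII) oocytes from ICR mice, an outbred strain, at 42 to 45 weeks of age, when reproduction declines. The 3 IVM pools held oocytes matured in vitro and the 3 IVO pools oocytes matured in vivo. For IVM, denuded oocytes were taken from the ovary after PMSG priming and cultured without their cumulus cells in M16 medium for 12 h. For IVO, mice also received hCG, and ovulated oocytes were collected from the oviduct 14 h later and freed of cumulus cells with hyaluronidase. All mice were thus primed with PMSG. Culture, the hCG injection, the hours allowed for maturation, and when and how cumulus cells were removed differed together between the groups. These differences cannot be told apart. Each pool held 20 oocytes from 3 mice, so no value belongs to a single oocyte or animal. Whether pools shared mice was not given in the sources used here, and the p-values measure the spread between these pools only.

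GDF9, BMP15 and BMP6 belong to the TGF-beta superfamily. They are made as proproteins, cleaved by convertases and released as dimers that act on receptor kinases of granulosa and cumulus cells, which pass the signal to SMAD proteins. GDF9 and BMP15 can also pair with each other and are known for driving granulosa cell growth and cumulus expansion, and FGF8 acts with BMP15 on the metabolism of cumulus cells. KIT is the oocyte's receptor for Kit ligand from granulosa cells and signals through PI3K. The OOSP proteins are small secreted proteins of the oocyte, and their role is less well understood.

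MII oocytes do not transcribe, so their mRNA is what was stored during growth, and much of its control runs through the length of the poly(A) tail. The cDNA kit used here primes from the poly(A) tail. The 3′ ends of the annotated canonical transcripts were therefore searched in the last 100 bases for the polyadenylation signal (AATAAA or ATTAAA) and for the cytoplasmic polyadenylation element (TTTTAT or TTTTAAT), both on the transcribed strand. The signal was found in 6 of the 8 members and the element in 3, beside 74.1% and 15.9% of the 21488 protein-coding canonical transcripts. The stretches of *Gdf9*, *Bmp15* and the 3 *Oosp* genes are shown because the results below turn on these genes, with signal and element in capitals, 5′ to 3′, from GENCODE transcripts on GRCm39.
Gdf9: gtggTTTTATgtgacggaagAATAAActgt
Bmp15: ttaatcttaaagAATAAAttttcatttatg
Oosp1: ATTAAAgAATAAAaatttcccattagtgcc
Oosp2: atacatcaatgaAATAAAggctcagcttat
Oosp3: acctataAATAAAacaTTTTATtgtatcac
All of these lie in the 3′ UTR of the last exon, at chr11:53328689-53328718 (plus strand) for *Gdf9*, chrX:6226171-6226200 (minus strand) for *Bmp15*, chr19:11644894-11644923 (minus strand) for *Oosp1*, chr19:11624652-11624681 (minus strand) for *Oosp2* and chr19:11689197-11689226 (plus strand) for *Oosp3*. In *Gdf9* the element stood 10 bases before the signal, and in *Oosp3* it stood 3 bases after it. *Bmp15*, *Oosp1*, *Oosp2* and *Kit* held the signal without the element in this window, *Bmp6* held the element 73 bases from its end without the signal, and *Fgf8* held neither. Where a window held several matches, distances are given for the match nearest the end. The AATAAA of *Oosp1*, which an ATTAAA precedes, lay 87 bases from the end of the listed transcript, against 17 to 29 bases in *Gdf9*, *Bmp15*, *Kit*, *Oosp2* and *Oosp3*. A match of these letters is a description of the annotated end and not a measurement of tail length.

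From the steps between low values, IVM libraries held an inferred 16450000 to 19150000 fragments and IVO libraries 17750000 to 18175000, and 3 fragments on a transcript of 1000 bases were worth 0.197 to 0.232 FPKM. The inferred mean fragment length was 202 to 216 bases in IVM and 248 to 264 bases in IVO libraries. Over all tested genes the median log2FC of IVO against IVM was -0.30 in the deposited scale, -0.04 after libraries were scaled by the median ratio and 0.17 after quantile normalization, so each difference below is read against that shift. The labelled cell type was checked with 12 oocyte markers, which were all detected and summed to 15920 to 18857 FPKM in IVM and 13058 to 14193 FPKM in IVO libraries. Of the 22 markers of cumulus and granulosa cells, *Nr5a1*, *Pgr* and *Amh* were listed at 0 in all 6 libraries. *Has2*, *Ptx3*, *Tnfaip6* and *Ptgs2*, which cumulus cells express during expansion and which the naming rule does not cover, reached at most 0.50 FPKM. Others of the list were higher over the 6 libraries, with *Nr5a2* at 13.5 to 39.2 and *Cyp19a1* at 16.3 to 23.1 FPKM. *Fshr* at 6.14 to 16.3 and *Amhr2* at 3.14 to 27.9 FPKM, also outside the naming rule, were higher too. Of the 22 markers, 6 were higher in every IVO library than in every IVM library, beside 9.62% of all tested genes. Lower in every IVO library was 1, *Nr5a2*, beside 32.6% of all tested genes. Among the 6, only *Serpine2* passed the filter, so the share of 9.62% does not cover the rest. Named after their values were seen, the 6 were *Has2* (0.04 to 0.14 FPKM in IVM, 0.17 to 0.37 FPKM in IVO), *Ptx3* (0 to 0.03 and 0.07 to 0.17 FPKM), *Tnfaip6* (0 to 0.14 and 0.34 to 0.49 FPKM), *Gja1* (0.02 to 0.05 and 0.24 to 0.86 FPKM), *Fst* (0.10 to 0.12 and 0.36 to 1.73 FPKM) and *Serpine2*. The whole list summed to 253 to 344 FPKM in IVM and 347 to 393 FPKM in IVO libraries, most of it from *Serpine2*, and its part in the results was not tested. The 9 blood cell markers summed to 1.73 to 3.28 FPKM in IVM and 3.01 to 23.5 FPKM in IVO libraries, the highest from *Lyz2* at 15.7 FPKM in IVO replicate 3. The 5 markers of oviduct epithelium summed to at most 5.58 FPKM, nearly all from *Epcam*, and *Pax8* was at 0 in every library. The red cell gene *Alas2* was also at 0 in every library, but the globin genes were not. *Hbb-bs* was at 0 in all IVM libraries and at 0, 2.33 and 2.04 FPKM in the IVO libraries. *Hbb-bt*, *Hba-a1* and *Hba-a2* reached at most 0.64, 1.45 and 1.89 FPKM in IVO, against 0, 0.15 and 0.83 FPKM in IVM.

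The comparison of IVO with IVM asked whether the route of maturation went with the amount of these mRNAs. *Oosp3* and *Oosp1* were among the most abundant mRNAs of the oocyte in both groups, and *Gdf9*, *Bmp15* and *Oosp2* were high. *Kit* was at a middle level, and *Bmp6* and *Fgf8* were low. *Bmp15* was the member that separated the groups, lower in all 3 IVO libraries than in all 3 IVM libraries. A DEG had |log2FC| ≥ 1 together with a limma p-value under 0.05 after Benjamini-Hochberg adjustment, the thresholds of the study. By this rule 0 of the 8 members were DEGs in either direction, beside 18.5% of all tested genes, which divide into 17.9% with lower and 0.606% with higher values in IVO. Before adjustment, the limma p-value was under 0.05 for 6950 of the 18818 tested genes and for 1 member, *Bmp15*. It also kept an adjusted p-value under 0.05, as did 21.5% of all tested genes with lower values in IVO at any fold change. The log2FC was negative for 5 of the 8 members, beside 66% of all tested genes. The median log2FC of the 8 members was -0.31, close to that of all tested genes (-0.30), and it was 0.00 with median-ratio scaling. The tested genes also hold loci assembled from the reads, while all 8 members are Ensembl genes. Over the 13154 tested Ensembl genes alone the median log2FC was -0.18, with 1972 DEGs lower and 84 higher in IVO. FPKM are scaled to library size, so they give the level of a transcript relative to others in its pool. The number of transcripts per oocyte, or a change in the total mRNA of the oocyte, cannot be read from them.

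**Figure D1:**
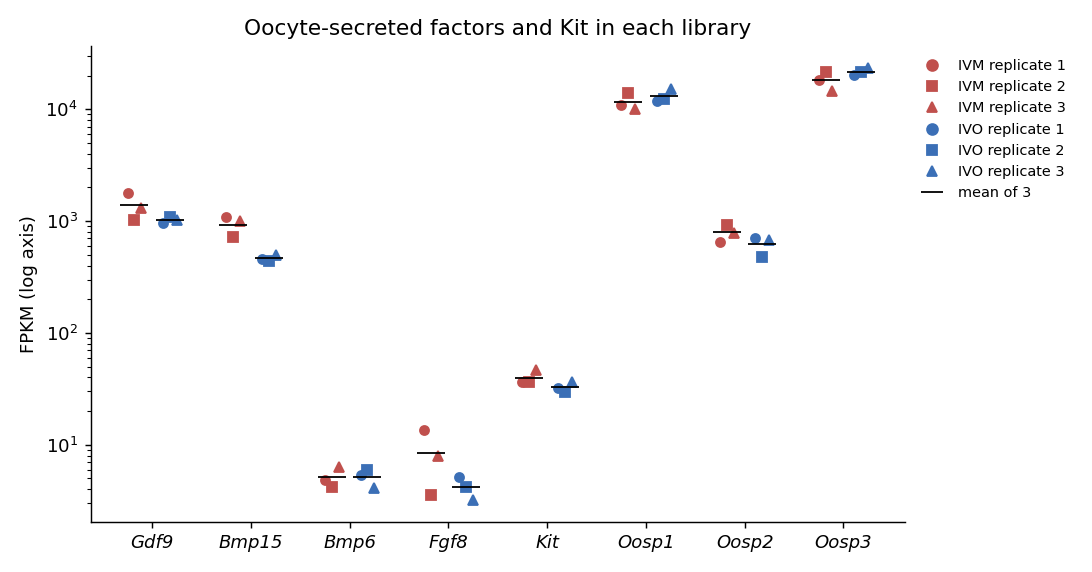
FPKM of the 8 genes on a log axis in each of the 6 libraries, IVM in red and IVO in blue, with the replicate number by shape and the mean of 3 as a black bar. The IVO means span from 4.15 FPKM for *Fgf8* to 21731 FPKM for *Oosp3*, and *Bmp15* is the gene among the 8 that has IVM and IVO values that do not overlap.

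The levels, which are per length and can be compared between genes, fell into tiers. In IVM the order was *Oosp3*, *Oosp1*, *Gdf9*, *Bmp15*, *Oosp2*, *Kit*, *Fgf8* and *Bmp6*. In IVO it was *Oosp3*, *Oosp1*, *Gdf9*, *Oosp2*, *Bmp15*, *Kit*, *Bmp6* and *Fgf8*. *Oosp3* exceeded *Oosp1* in 3 of 3 libraries of each group with ranges apart, by 1.57 times in IVM and 1.65 times in IVO on the group means. *Oosp1* stood 8.45 times above *Gdf9* in IVM and 12.8 times above it in IVO. The IVM ranges of *Gdf9* and *Bmp15* overlapped, although *Gdf9* was higher in each of the 3 libraries. The ranges of *Bmp15* and *Oosp2* overlapped in both groups. Within libraries, *Bmp15* was the higher in 2 of 3 IVM libraries and *Oosp2* in 3 of 3 IVO libraries. The ranges of *Fgf8* and *Bmp6* also overlapped in both groups, with *Fgf8* higher in 2 of 3 IVM libraries and *Bmp6* in 3 of 3 IVO libraries. These exchanges of places were not tested. From the fifth gene to *Kit* the level dropped 19.9 times in IVM and 14.3 times in IVO.

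*Bmp15*, on chromosome X from 6226161 to 6232775 with 2 exons, encodes the oocyte factor whose loss impairs fertility in several mammals. Its FPKM was 1077, 715 and 997 in the IVM libraries and 460, 442 and 494 in the IVO libraries. The highest IVO value was below the lowest IVM value, a pattern that 32.6% of all tested genes shared in this direction. The mean of the IVM group was 930 ± 190 (SD, n = 3) and that of the IVO group 466 ± 26.3 (SD, n = 3), a ratio of 0.501. The log2FC was -0.98 (standard error 0.19, 95% interval -1.42 to -0.53, limma adjusted p = 0.0120), just short of the fold threshold. Without IVM replicate 2, the lowest IVM value, the log2FC was -1.15 and *Bmp15* was a DEG, as it was without IVO replicate 3 at -1.02. Median-ratio scaling gave a log2FC of -0.65 (adjusted p = 0.0501), and quantile normalization gave -0.53 (adjusted p = 0.107). *Bmp15* was thus below the median of all genes under each of these 3 scalings, and of the 3 its adjusted p-value passed the threshold with the FPKM as deposited.

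*Gdf9*, the partner of *Bmp15* that granulosa cells require from the primary follicle onwards, lies on chromosome 11 from 53321850 to 53328731 and has 2 exons. Its FPKM was 1794, 1028 and 1321 in IVM and 964, 1089 and 1023 in IVO. The groups overlapped, since IVM replicate 2 fell between the IVO values. The means were 1381 ± 387 (SD, n = 3) and 1025 ± 62.8 (SD, n = 3), with a log2FC of -0.39 (standard error 0.22, 95% interval -0.90 to 0.11, adjusted p = 0.232). Median-ratio scaling gave a log2FC of -0.07 and quantile normalization 0.04, so no direction can be given. In the annotation, 1 exonic base of *Gdf9* is shared with *Uqcrq* on the opposite strand, a gene of respiratory complex III that went from 242 to 280 FPKM in IVM to 26.0 to 32.6 FPKM in IVO.

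A ratio of 2 genes within a library does not change when all values of that library are multiplied by a factor, as in median-ratio or sum scaling, although quantile normalization does change it. Such ratios were compared for 6 pairs. The ratio of *Bmp15* to *Gdf9* was 0.600, 0.695 and 0.755 in the IVM libraries and 0.478, 0.406 and 0.483 in the IVO libraries. Every IVO library had less *Bmp15* per *Gdf9* than every IVM library. The means were 0.684 ± 0.0780 (SD, n = 3) and 0.455 ± 0.0429 (SD, n = 3), a difference of -0.58 on the log2 scale. The exact two-sided permutation test gave p = 0.1, the smallest value that 3 against 3 samples allow, and 0.3 after adjustment over the 6 ratios. With each library left out in turn the difference was -0.67 to -0.50. The ratios of *Bmp6*, *Kit* and *Oosp1* to *Gdf9* overlapped between the groups, with exact permutation p-values of 0.3, 0.9 and 0.3.

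**Figure D2:**
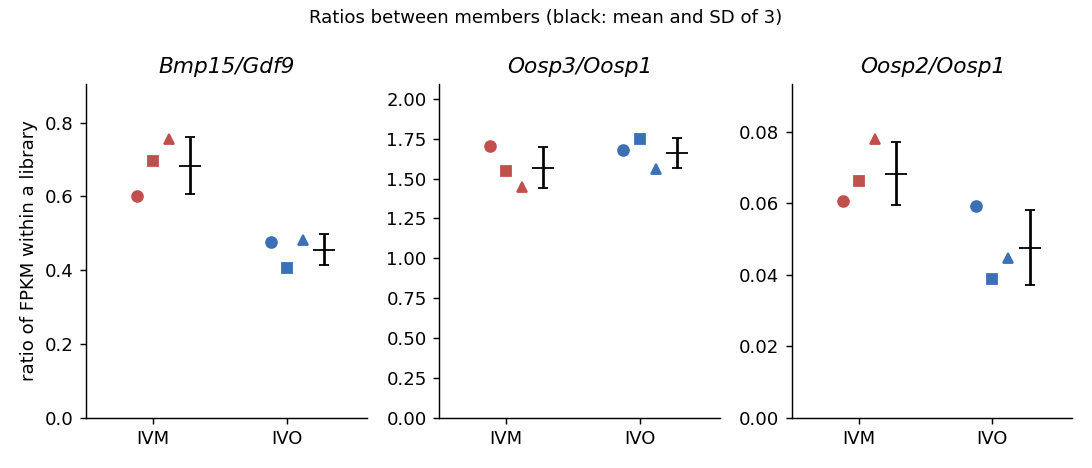
Ratios of FPKM within each library for 3 pairs of genes, IVM in red and IVO in blue with the replicate number by shape, and the mean and SD of 3 in black, on axes that start at 0. The ratio of *Bmp15* to *Gdf9* is 0.600 to 0.755 in IVM and 0.406 to 0.483 in IVO, that of *Oosp3* to *Oosp1* overlaps, and that of *Oosp2* to *Oosp1* is lower in every IVO library by a small margin between 0.0607 and 0.0591.

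*Bmp6*, a bone morphogenetic protein of the growing oocyte, lies on chromosome 13 from 38529065 to 38684280 and has 7 exons. Its FPKM was 4.84, 4.17 and 6.38 in IVM and 5.33, 5.95 and 4.11 in IVO, with the same mean of 5.13 in both groups. The log2FC was 0.00 (standard error 0.24, 95% interval -0.56 to 0.57, adjusted p = 0.993). The values rest on 247 to 413 inferred fragments per library. *Bmp6* shares 226 of its 3920 exonic bases with *Txndc5* on the opposite strand, listed at 23.3 to 43.6 FPKM, and reads there cannot be assigned without strand, so the level of *Bmp6* is uncertain.

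*Fgf8*, on chromosome 19 from 45725237 to 45731354 with 5 exons, was the most variable of the 8 genes. Its FPKM was 13.7, 3.56 and 7.88 in IVM and 5.10, 4.16 and 3.20 in IVO, and IVM replicate 2 lay within the IVO range. The log2FC was -0.72 (standard error 0.42, 95% interval -1.72 to 0.27, adjusted p = 0.266). These values rest on 53 to 214 inferred fragments per library. *Fgf8* also shares 185 of its 1350 exonic bases with *Gm59181*, a noncoding gene on the opposite strand without listed values. Reads there cannot be assigned without strand, so the level of *Fgf8* is uncertain as well. Without IVM replicate 2 the log2FC was -1.16 (adjusted p = 0.0624), and without IVM replicate 1 it was -0.32 (adjusted p = 0.599), so single libraries set its size.

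*Kit*, on chromosome 5 from 75735576 to 75817404 with 21 exons, had an FPKM of 36.2, 36.5 and 46.7 in IVM and of 31.95, 29.9 and 36.2 in IVO. The highest IVO value, 36.19, lay just above the lowest IVM value, 36.16. The means were 39.8 ± 5.97 (SD, n = 3) and 32.7 ± 3.23 (SD, n = 3), with a log2FC of -0.27 (standard error 0.19, 95% interval -0.73 to 0.18, adjusted p = 0.361). This difference was close to the median of all tested genes (-0.30) and below that of the tested Ensembl genes (-0.18). The sign of the log2FC of *Kit* turned with median-ratio scaling, to 0.04, and with quantile normalization, to 0.19. *Kitl*, the ligand, which granulosa cells supply, was listed at 1.14 to 1.95 FPKM in IVM and 1.59 to 2.50 FPKM in IVO.

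The 3 *Oosp* genes lie together on chromosome 19 within 64596 bases. *Oosp2* runs from 11624643 to 11637923 and *Oosp1* from 11644824 to 11668514, both on the minus strand, and *Oosp3* runs from 11674419 to 11689238 on the plus strand. The starts of *Oosp1* and *Oosp3* face away from each other at a distance of 5905 bases. *Oosp3* and *Oosp1* ranked between 1 and 3 and between 4 and 6 among all tested genes in every library. Together they made up 1.39%, 1.70% and 1.36% of the summed FPKM in IVM and 2.06%, 2.16% and 2.36% in IVO libraries. This share was higher in every IVO library, where the summed FPKM was lower at 1560813 to 1643682 against 1826738 to 2111776 in IVM. A lower sum raises the share of any gene at the same FPKM. How many of all tested genes had a higher share in every IVO library was not counted.

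*Oosp3* had an FPKM of 18416, 21756 and 14689 in IVM and 20114, 21481 and 23599 in IVO. *Oosp1* had an FPKM of 10814, 14047 and 10146 in IVM and 11971, 12303 and 15158 in IVO. In both genes IVM replicate 2 lay among the IVO values, so the groups overlapped. The log2FC was 0.26 for *Oosp3* (standard error 0.16, 95% interval -0.11 to 0.64, adjusted p = 0.282) and 0.18 for *Oosp1* (standard error 0.17, 95% interval -0.21 to 0.57, adjusted p = 0.483). With libraries scaled to the same sum, the log2FC was 0.60 for *Oosp3* (adjusted p = 0.0120) and 0.52 for *Oosp1* (adjusted p = 0.0292), still under the fold threshold. That scaling gave a median log2FC of -0.03 over all tested genes, with 2131 DEGs lower and 397 higher in IVO. Median-ratio scaling gave 0.59 for *Oosp3* (limma adjusted p = 0.0795) and 0.50 for *Oosp1* (limma adjusted p = 0.119). With quantile normalization both were negative, at -0.10 and -0.09. Quantile normalization sets the highest ranks of every library to equal values, which leaves little room for genes at ranks 1 to 6 to differ. Within libraries, *Oosp3* was 1.70, 1.55 and 1.45 times *Oosp1* in IVM and 1.68, 1.75 and 1.56 times in IVO, with overlapping groups (exact permutation p = 0.4).

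*Oosp2* was far less abundant than its neighbours, with an FPKM of 656, 929 and 790 in IVM and 708, 477 and 679 in IVO. The groups overlapped, and the log2FC was -0.36 (standard error 0.21, 95% interval -0.86 to 0.15, adjusted p = 0.277). Its ratio to *Oosp1* was 0.0607, 0.0661 and 0.0778 in IVM and 0.0591, 0.0388 and 0.0448 in IVO. All 3 IVO libraries lay below the IVM libraries, with a difference of -0.54 on the log2 scale and an exact permutation p = 0.1, the smallest possible, adjusted to 0.3. This order did not hold under quantile normalization, where the log2FC was 0.12 for *Oosp2* and -0.09 for *Oosp1*. With the length trend taken out, the log2FC was 0.21 for *Oosp2*, 0.57 for *Oosp1* and 0.13 for the median of all tested genes. For *Oosp3* it was 0.73 (limma adjusted p = 0.0271, and 0.0845 with the replicate block as well). *Plac1*, a relative of the *Oosp* genes that is known from the placenta, was listed at 10.1 to 19.9 FPKM in IVM and 10.2 to 12.8 FPKM in IVO.

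The IVM libraries did not rank the members alike. *Gdf9*, *Bmp15* and *Fgf8* were highest in IVM replicate 1 and lowest in IVM replicate 2, while *Oosp1*, *Oosp2* and *Oosp3* were highest in IVM replicate 2. The SD of *Gdf9* was 387 FPKM in IVM and 62.8 FPKM in IVO, and that of *Bmp15* was 190 and 26.3 FPKM. This difference in spread was not tested.

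**Figure D3:**
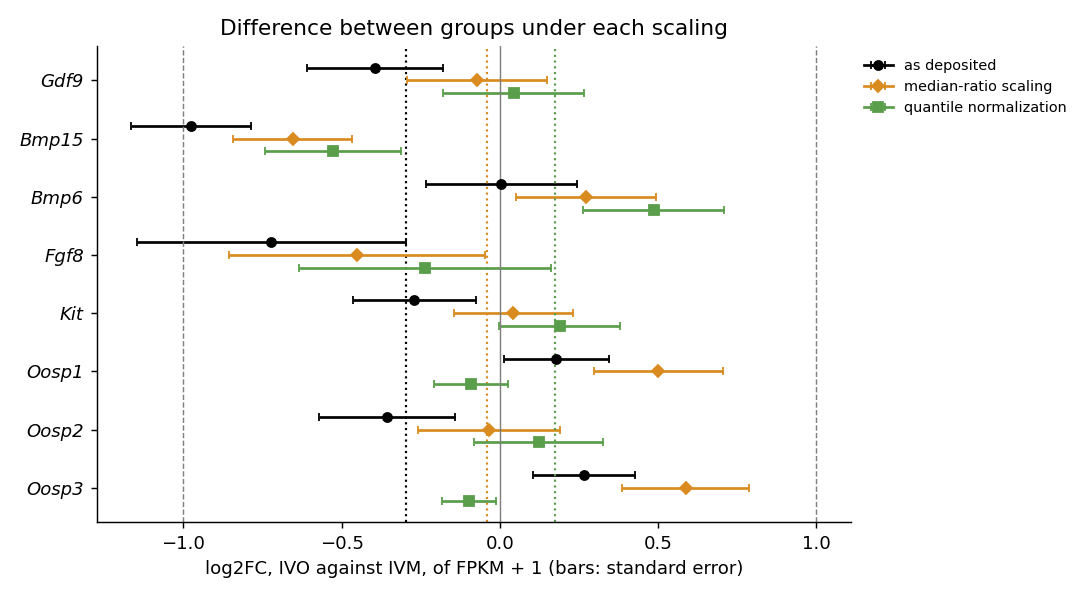
Differences (log2FC of FPKM + 1, IVO against IVM, with the standard error) of the 8 genes for the deposited FPKM in black, for median-ratio scaling in orange and for quantile normalization in green, beside the median of all tested genes as dotted lines of the same color and the fold threshold as dashed lines at -1 and 1. *Bmp15* is lower than that median under each scaling (-0.98, -0.65 and -0.53), and no point lies beyond the fold threshold.

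The genes whose pattern was nearest to a member were found by the root mean square difference (RMS) of centered log2(FPKM + 1) values over the 6 libraries. For *Bmp15* they were *Cenpm*, a centromere protein (RMS 0.0730), and *Aass*, an enzyme of lysine breakdown (RMS 0.0750). *Cenpm* had an FPKM of 22.4, 14.9 and 21.2 in IVM and 8.75, 7.80 and 8.67 in IVO. For *Gdf9* they were *0610040J01Rik* (RMS 0.0536) and *Snrpn*, a spliceosomal protein whose transcript also holds *Snurf*, so that their reads may be split (RMS 0.0801). *0610040J01Rik* was low, at 0.75 to 2.01 FPKM in IVM and 0.59 to 0.91 FPKM in IVO, where adding 1 shrinks its differences. For *Kit* they were *Smug1*, a DNA glycosylase (RMS 0.0374), and *Nup93*, a nucleoporin (RMS 0.0481). For *Oosp1* they were *Snrpb2*, another spliceosomal protein (RMS 0.0423), and *Mosmo* (RMS 0.0427), at 735 to 1029 FPKM and 10.6 to 16.4 FPKM. Each of these 8 genes was less abundant than the member to which its pattern was nearest.

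The signalling machinery around these factors was described with 6 lists and *Plac1*, 93 genes in all, of which 56 passed the filter. Of these, 4 were called as DEGs with lower and 0 with higher values in IVO, 7.14% beside 18.5% of all tested genes, and their median log2FC was 0.07. Of the 12 receptors of the TGF-beta superfamily, 9 were tested and 0 were DEGs, with a median log2FC of 0.12. An unadjusted p-value under 0.05 was found for 0 of them, beside 6950 of the 18818 tested genes. The most abundant was *Bmpr1b*, a type 1 receptor for BMP15, at 125 to 137 FPKM in IVM and 108 to 134 FPKM in IVO (log2FC -0.10, adjusted p = 0.715). *Acvr1b*, a receptor for activin, and *Bmpr2*, the type 2 receptor shared by GDF9 and BMP15, followed with log2FC of -0.25 and 0.39 (adjusted p = 0.469 and 0.221). *Tgfbr2*, *Acvrl1* and *Acvr1c* did not pass the filter.

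Of the 8 *Smad* genes, 5 were tested and 0 were DEGs, with a median log2FC of 0.07. An unadjusted p-value under 0.05 was found for 0 of them, beside 6950 of the 18818 tested genes. *Smad3* and *Smad2*, which act below GDF9-type receptors, and the common *Smad4* were the most abundant, at 33.4 to 53.6, 20.2 to 27.5 and 17.9 to 29.8 FPKM over the 6 libraries. The inhibitory *Smad6* and *Smad7* reached at most 0.06 and 0.04 FPKM. Among convertases and antagonists, 7 of 14 were tested and 0 were DEGs (0 at an unadjusted p-value under 0.05), led by the ubiquitin ligase *Smurf2* (log2FC 0.41, adjusted p = 0.275), the follistatin relative *Fstl3* (log2FC 0.15) and the convertase *Furin* (log2FC -0.02). *Chrd*, *Nog* and *Bambi* were listed at 0 in all 6 libraries.

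Of the 17 other ligands of the superfamily, 3 were tested and 0 were DEGs, and 6 were listed at 0 in all 6 libraries. An unadjusted p-value under 0.05 was found for 1, beside 6950 of the 18818 tested genes. *Tgfb2*, named here after its values were seen, reached the level of *Gdf9*, with an FPKM of 991, 1045 and 1179 in IVM and 1517, 1451 and 1534 in IVO. All 3 IVO values lay above the IVM values, as in 9.62% of all tested genes, with a log2FC of 0.49 (standard error 0.13, adjusted p = 0.0384), which is under the fold threshold and opposite in sign to *Bmp15*. Its log2FC was positive in all 18 alternatives, and its adjusted p-value was under 0.05 in 9 of them, with a range of 0.0133 to 0.123. *Bmp5*, also named after its values were seen, was at 206 to 342 FPKM in IVM and 140 to 234 FPKM in IVO (log2FC -0.47, adjusted p = 0.257).

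The FGF list held 18 genes, of which 10 were tested and 2 fell in IVO, a share close to the 17.9% of all tested genes that were called lower. *Fgfr2*, an FGF receptor, had an FPKM of 730, 795 and 521 in IVM and 275, 209 and 278 in IVO. Its groups were apart, and the log2FC was -1.41 (standard error 0.22, adjusted p = 0.00564). Under median-ratio scaling *Fgfr2* was still a DEG at -1.09, whereas quantile normalization gave -0.89. *Spred2*, an inhibitor of RAS signalling, had an FPKM of 20.6, 29.3 and 21.8 in IVM and 1.42, 11.3 and 6.08 in IVO (log2FC -2.05, standard error 0.55, adjusted p = 0.0363), a call that was lost in 12 of its 18 alternatives. *Fgfr3*, *Fgfr4* and *Fgf17* were listed at 0.

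Of the 23 genes of the KIT and PI3K list, 21 were tested, 2 fell in IVO and 0 rose, beside 17.9% and 0.606% of all tested genes. *Tsc2*, a brake on mTOR, had an FPKM of 8, 4.57 and 6.03 in IVM and 1.35, 0.26 and 1.61 in IVO (log2FC -1.84, standard error 0.35, adjusted p = 0.0113). *Akt2*, a kinase below PI3K, had an FPKM of 21.0, 15.5 and 22.8 in IVM and 6.12, 9.20 and 5.72 in IVO (log2FC -1.38, standard error 0.25, adjusted p = 0.00988). With median-ratio scaling both were DEGs, and *Akt2* was not with quantile normalization, at -0.88. With median-ratio scaling *Grb2* and *Sos1*, adaptors between receptor kinases and RAS named after their values were seen, were also DEGs, higher in IVO with log2FC of 1.15 and 1.04 (adjusted p = 0.0299 and 0.0465). Their log2FC with the FPKM as deposited was 0.85 and 0.80 (adjusted p = 0.0709 and 0.0900).

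Of the 12 oocyte markers, 6 were DEGs lower in IVO, beside 17.9% of all tested genes, with log2FC of -3.69 for *Zp2*, -3.13 for *Zp3*, -2.43 for *Zp1* and -2.03 for *Figla*, their transcription factor. The most abundant, *Dppa3*, *H1f8* and *Ooep*, were not DEGs. Of the 22 cumulus and granulosa cell markers, 6 were tested and 1, *Nr5a2*, fell (log2FC -1.04, adjusted p = 0.0139), a call that was lost in 9 alternatives. *Serpine2* was at 179 to 272 FPKM in IVM and 290 to 328 FPKM in IVO (log2FC 0.57, adjusted p = 0.0863), and *Cyp19a1* was at 16.3 to 23.1 FPKM over the 6 libraries (log2FC 0.18).

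**Figure D4:**
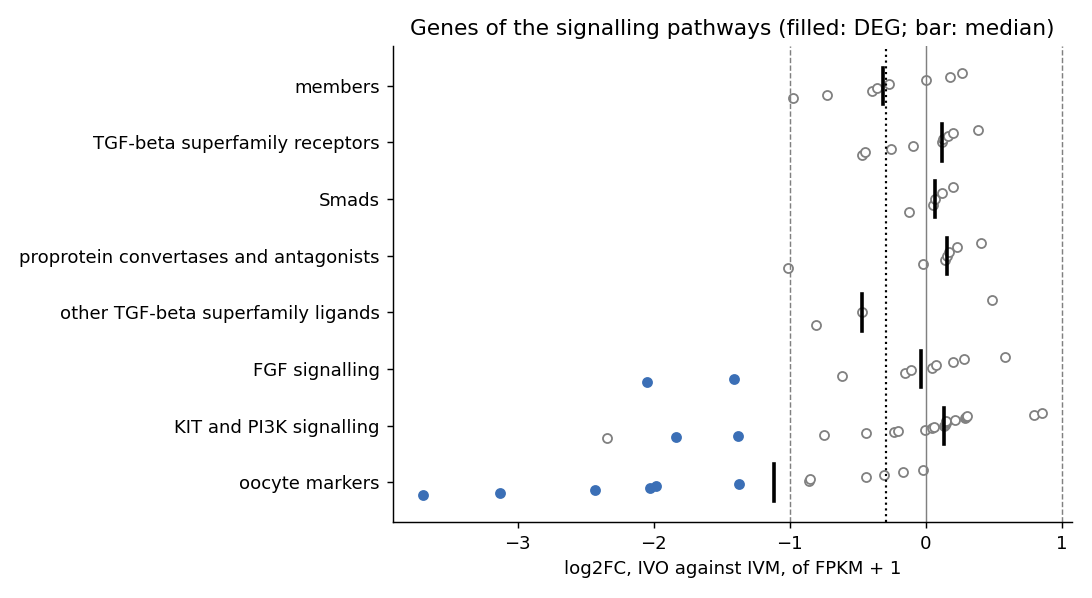
Differences (log2FC of FPKM + 1, IVO against IVM) of the tested genes of each list, with DEGs filled, the median of each list as a black bar, the median of all tested genes (-0.30) as a dotted line and the fold threshold as dashed lines at -1 and 1. The 4 DEGs of the signalling lists and the 6 of the oocyte markers lie below -1, and 0 of the 8 members do.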

How the data were processed

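The authors removed adapters and low-quality bases from paired reads (SeqPrep, Sickle), mapped the rest with HISAT2 2.1.0 on GRCm39, and deposited FPKM computed per gene and sample by RSEM 1.3.3. The libraries came from full-length cDNA (SMART-Seq v4, Nextera XT) and are not stranded. The deposited group means equal the mean of the samples and were not tested, and the listed gene lengths served for depth and the length trend. FPKM are not counts, so the DESeq2 test of the authors was replaced by limma 3.58.1 (R 4.3.3; lmFit, then eBayes with a trend), with the group as the only term. Values entered as log2(FPKM + 1), and 18818 genes had a mean of 1 FPKM or more. A log2FC on this scale understates changes of low genes.

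To infer depth, low values of 15053 genes with a single annotated transcript of 500 to 4000 bases were set against whole numbers of fragments, and 71.5% to 75.6% lay within 0.15 of such a number. Floors cover counting error only. Ratios were compared with exact permutation tests (scipy 1.17.1). The fits were tested on simulated data.

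The genes, lists and tests were chosen with earlier results of these data known. The text names the 8 genes, the DEGs of each list (at most 4 by size), the 3 most abundant genes of the receptor, SMAD, convertase and marker lists, marker genes at 0, and the 2 nearest patterns of 4 members. The alternatives changed the pseudocount (0.1), the filter (none, or a mean of 5 FPKM), the scaling (median-ratio, quantile, same sum), the trend, the replicate block, the length trend (lowess, span 0.3) and the genes (Ensembl only), and left out each sample in turn.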

Additional observations from a re-analysis of the deposited data

How the results depend on the processing

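Of the 144 alternative values of the 8 members' log2FC, 142 kept their side of the thresholds, and those of *Bmp15* without IVM replicate 2 (-1.15) and without IVO replicate 3 (-1.02) passed them. With a sample left out its log2FC ranged from -1.15 to -0.86, so that the number of members called lower in IVO ranged from 0 to 1 with a sample left out. *Bmp15* stayed negative in all 18 alternatives and had an adjusted p-value under 0.05 in 14 of them. The sign of the log2FC turned in 1 alternative for *Gdf9*, 4 for *Bmp6*, 5 for *Kit*, 1 for *Oosp1*, 3 for *Oosp2* and 1 for *Oosp3*, none of which was called. With a sample left out, the difference in the log2 ratio of *Bmp15* to *Gdf9* ranged from -0.67 to -0.50. The 3480 DEGs over all 18818 tested genes became 2136 with the length trend removed and 876 with the replicate block as well. They became 2056 over Ensembl genes only and 1610 over Ensembl genes with median-ratio scaling, a choice made after seeing the data. Both Ensembl settings tested 13154 genes. Apart from that smaller number, the cause was not tested. The DEGs over all tested genes divide into 3366 lower and 114 higher as deposited, 2130 and 385 with median-ratio scaling, and 1580 and 1097 with quantile normalization. Ranked among Ensembl genes, the mean percentile was 35.6 for *Bmp6*, 72.2 for *Kit* and 99.97 for *Oosp1*, against 39.8, 74.6 and 99.98 among all tested genes.

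Deviations from the group means correlated at -0.0618, -0.0176 and -0.107 across genes between same-numbered libraries, and IVM replicate 1 correlated best with IVO replicate 3. No pairing by replicate number was seen in these values. With 3 pools per group they cannot decide whether same-numbered pools shared mice or a day of work. With the replicate block, 0 members and 2991 of all tested genes were DEGs, and the adjusted p-value of *Bmp15* was 0.0318. The exact sign-flip test of the ratio of *Bmp15* to *Gdf9* within numbers gave p = 0.25, the smallest that 3 pairs allow. The depth limits *Fgf8* and *Bmp6* most.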
